A study of Mus musculus with 6 samples.

Results

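The genes described here encode heterogeneous nuclear ribonucleoproteins (hnRNPs), proteins of the small nuclear ribonucleoproteins (snRNPs) and regulators of splicing. They were taken by name: protein-coding genes whose symbols begin with Hnrnp, Sf3, Prpf, Snrp, Snrnp, U2af, U2surp, Rbm followed by a digit or x, Celf, Mbnl, Rbfox, Ptbp, Khdrbs or Tra2, or are Qk, leaving out Rbm8a and Prpf4b. This gave 114 of the 12824 genes in the table, and all 114 passed the low-count filter. The rule itself uses no measured value, but it was chosen with earlier results of these data known.

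The libraries came from 6 hearts of C57BL/6 mice aged 2 months. In 3 of them both copies of the splicing factor gene Srsf4 were floxed and NKx2.5-Cre was carried (SRSF4flox/flox;NKx2.5-Cre, knockout or KO), and 3 were floxed without Cre (SRSF4flox/flox, control), so the controls did not carry Cre. Nkx2-5 is a transcription factor of the cardiac lineage, and cells of the heart outside that lineage keep Srsf4. Srsf4 had 8.39 to 10.8 CPM (counts scaled to library size) in the KO hearts and 22.1 to 23.7 CPM in the controls. Totals were 59810975 to 74941323 counts per library, at which the limit that a count of 0 allows, 3 counts, is 0.0400 to 0.0502 CPM before scaling factors, for counting error only. All 9 cardiomyocyte markers looked at were measured, with summed levels of 63930 to 71100 CPM. The column codes of the KO libraries share one prefix and those of the controls another, so genotype and a possible batch of libraries cannot be told apart here. In the principal components of all tested genes KO 1 lay away from KO 2 and KO 3 on the second axis, and the calls made without it are given near the end.

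The spliceosome is assembled on each intron from snRNPs, which are small nuclear RNAs bound by a ring of Sm proteins and by proteins particular to each particle. U1 recognises the start of the intron, and the U2AF and SF3 proteins mark and bind its end with U2; PRP factors then carry the U4, U6 and U5 particles in and drive the catalytic rearrangements. hnRNPs coat nascent transcripts and often oppose the inclusion of exons that SR proteins such as SRSF4 promote. CELF, MBNL, RBFOX, QK and RBM20 are known for setting the muscle and heart patterns of alternative exons. Many genes of these families control their own level by splicing in exons that mark the transcript for decay. The values here are counts per gene, so they show how much of each transcript was present and not how it was spliced.

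Of the 114 genes 1 fell and none rose in the KO hearts (edgeR, adjusted p under 0.05), which is 0.877% against 6.03% of the 12686 genes tested (3.29% higher and 2.74% lower). At an unadjusted p under 0.05 edgeR had 18, DESeq2 17 and limma-trend 19, where the same tools had 21.5%, 21.6% and 21.7% of tested genes. All 18 of edgeR were lower in the KO hearts. They make up 15.8% of the 114, where 10.3% of all tested genes were lower and 11.2% higher at this level. The 3 KO values lay below all 3 control values for 31 genes (27.2%; 13.5% of tested genes) and above them for 2 (1.75%; 13.7% of tested genes). Those 2 were Snrnp25, of the minor spliceosome, and Prpf19. The median log2 fold change of KO over control was -0.10, against -0.0032 over all tested genes, and 81 of the 114 fitted values were below 0 (71.1%; 50.6% of tested genes). The median of the 114 lay below that of all genes by 0.08 to 0.12 on the log2 scale across the settings tried. With total counts as the only scaling the median of all genes itself moved to -0.14 and that of the 114 to -0.23.

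**Figure D1:**
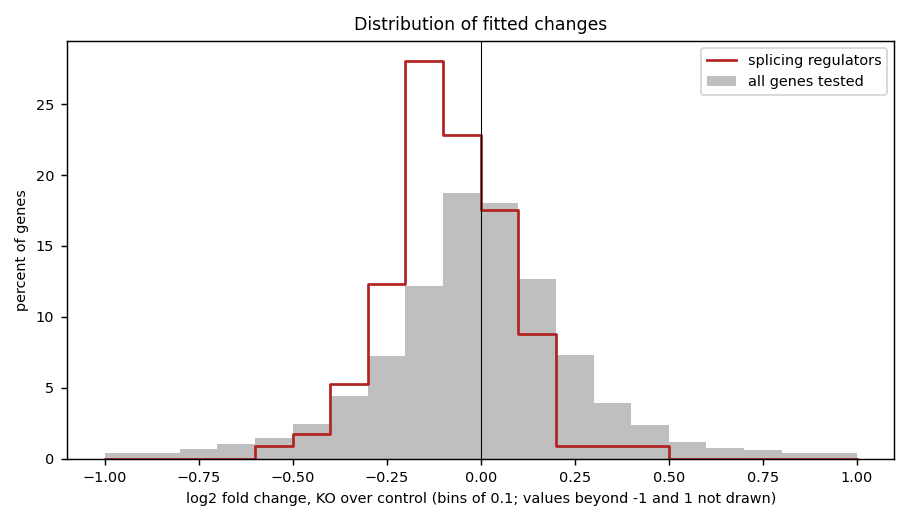
Percent of genes (vertical axis) in bins of the fitted log2 fold change of KO over control (horizontal axis), for the 114 splicing genes (red line) and all genes tested (grey bars). The 114 are centred left of 0, at a median of -0.10, and span -0.59 to 0.46.

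The 95% interval of the fold change lay inside 1.5-fold in both directions for 103 of the 114 genes (90.4%; 66.5% of tested genes). The other 11 were Khdrbs3, Snrnp35, Rbm38, Rbm28, Snrnp70, Prpf40b, Snrnp25, Rbfox1, Snrpd2, Rbm41 and Rbm47. The 2 shares are not matched for level. The median level was 21.8 CPM for the 114 and 12.2 CPM for all tested genes, and the median SE was 0.0991 and 0.124. Rbm47 had the lowest level of the 114, at 0.205 CPM, and an interval from -0.85 to 1.45. The summed level of the 114 genes was 4237, 4160 and 4308 CPM in KO hearts 1 to 3 and 4468, 4518 and 4315 CPM in controls 1 to 3. All 3 KO sums lay below the control sums, and KO 3 and control 3 were nearest to each other.

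**Figure D2:**
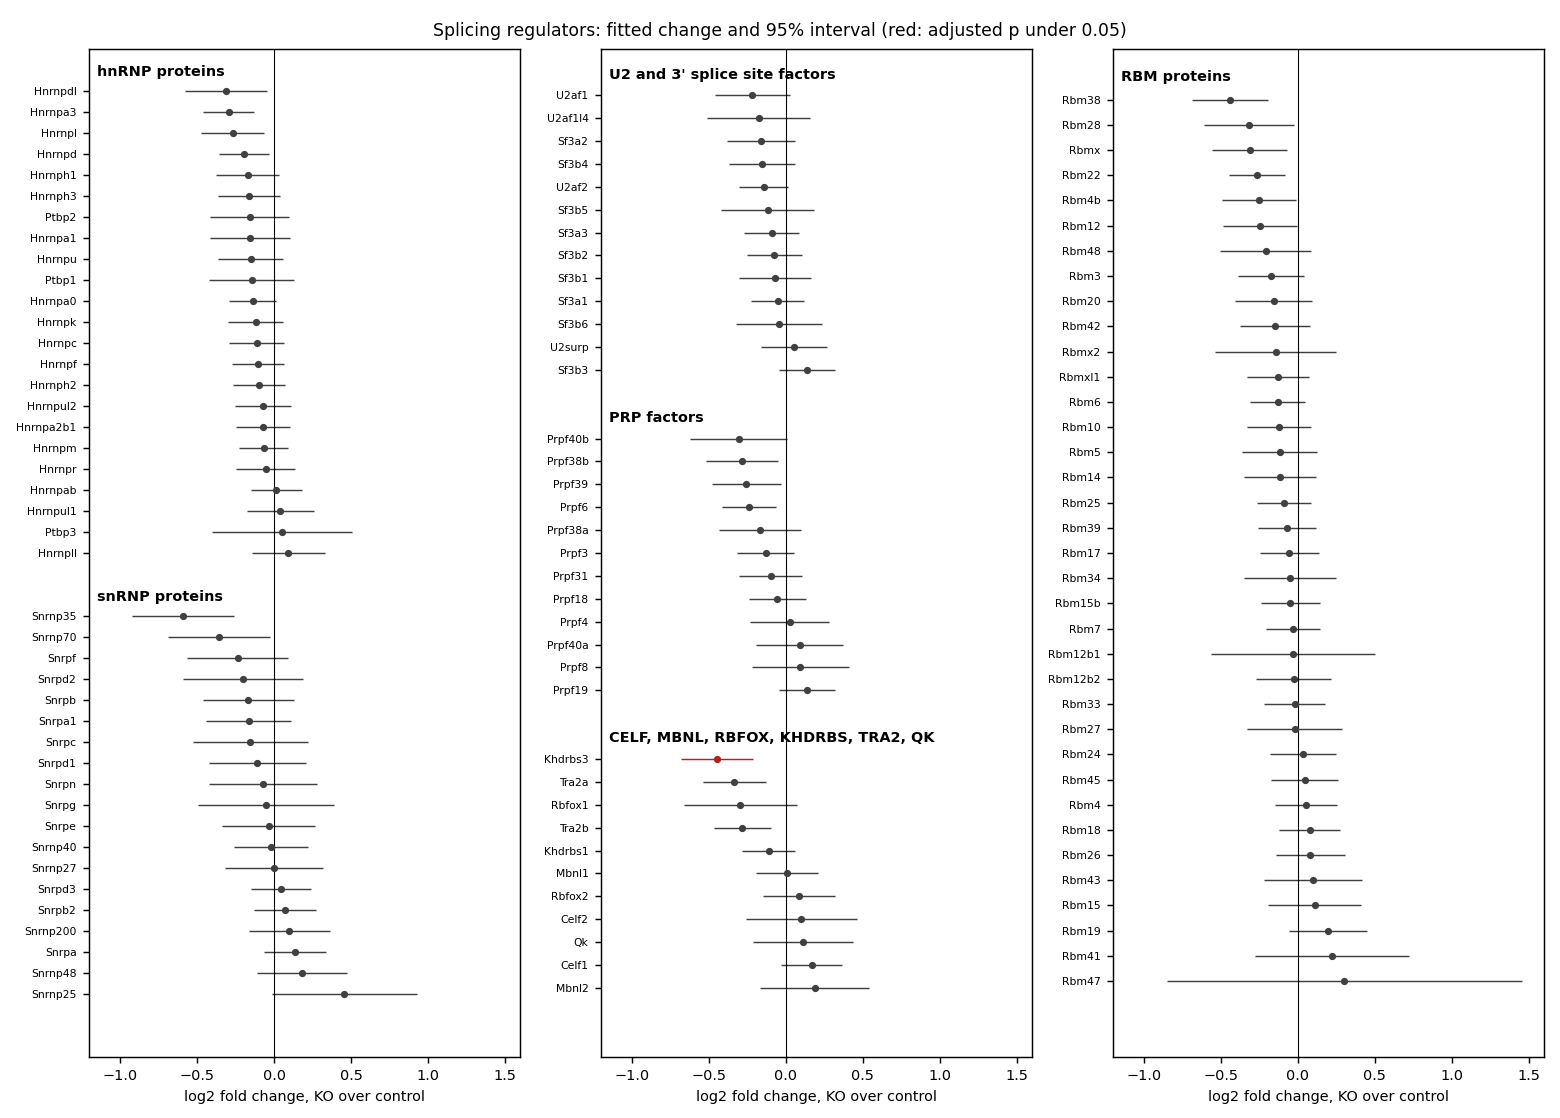
Fitted log2 fold change of KO over control (horizontal axis, points) with its 95% interval (bars) for each of the 114 genes, in groups by symbol. Khdrbs3, in red, is the gene with an adjusted p under 0.05; most hnRNP points lie left of 0, and the interval of Rbm47 is the widest.

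The regulators of alternative splicing comprised 11 genes of the CELF, MBNL, RBFOX, KHDRBS, TRA2 and QK families. Khdrbs3 (ENSMUSG00000022332, chromosome 15, 68928420 to 69093512, GRCm38), which encodes SLM2, an RNA-binding protein related to Sam68, was the gene that fell. It had 31.6, 24.7 and 28.5 CPM in KO hearts 1 to 3 and 38.3, 38.7 and 38.7 CPM in controls 1 to 3. The controls were nearly level, the KO hearts were spread below them, and the groups did not overlap. The log2 fold change was -0.45 (SE 0.10, n = 3 each), a 1.36-fold lower level (edgeR adjusted p = 0.0445). The call was lost in 5 of the 6 fits that left out a library: without KO 2 (edgeR adjusted p = 0.0931), KO 3 (0.128) and controls 1 to 3 (0.183, 0.141 and 0.159). The authors' deposited table gives Khdrbs3 an adjusted p of 0.102 and none of the 114 genes one under 0.05; at an unadjusted p under 0.05 the authors' deposited table has 10 of them (8.77%). These thresholds are passed by 6.43% and 14.9% of all genes in the authors' deposited table. Of 19 other tested genes starting within 5 Mb of Khdrbs3, 1 was called, beside 6.03% of all tested genes. Markers of smooth muscle and pericytes (6 of 6 measured, 1 called lower) also had a lower sum in the KO hearts, 421 to 531 CPM against 589 to 679 CPM; their part in these results was not tested.

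Khdrbs1, which encodes Sam68 itself, had 36.6, 36.9 and 39.6 CPM in KO hearts and 42.1, 41.3 and 38.9 CPM in controls, and did not pass (log2 fold change -0.11, edgeR adjusted p = 0.429). In it the groups overlapped through KO 3 and control 3.

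Tra2a and Tra2b encode the transformer-2 proteins, which act with SR proteins on exonic enhancers. Tra2a had 14.3, 12.1 and 13.6 CPM in KO hearts and 17.0, 16.8 and 16.8 CPM in controls. Tra2b had 25.1, 24.4 and 26.2 CPM in KO hearts and 31.0, 32.5 and 28.6 CPM in controls. Both were lower in every KO heart than in any control without passing the test. Their log2 fold changes were -0.34 (SE 0.09) and -0.28 (SE 0.08), with edgeR adjusted p = 0.0718 and 0.0893. DESeq2 called both. The promoters of this pair, 250 bases before to 50 after the start given by RefSeq (GRCm38.p6), are shown because both paralogs were lower in each KO heart. The first lies at chr6:49264003-49264302 and the second at chr16:22265956-22266255, both on the minus strand, and capitals mark each GC box (GGGCGG) and CCAAT box (CCAAT) on either strand.
Tra2a: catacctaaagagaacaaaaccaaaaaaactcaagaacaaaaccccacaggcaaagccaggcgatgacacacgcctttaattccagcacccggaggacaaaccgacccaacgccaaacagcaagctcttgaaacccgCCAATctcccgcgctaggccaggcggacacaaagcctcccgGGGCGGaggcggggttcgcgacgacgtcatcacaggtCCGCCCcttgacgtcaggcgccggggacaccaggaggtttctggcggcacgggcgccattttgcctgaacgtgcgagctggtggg
Tra2b: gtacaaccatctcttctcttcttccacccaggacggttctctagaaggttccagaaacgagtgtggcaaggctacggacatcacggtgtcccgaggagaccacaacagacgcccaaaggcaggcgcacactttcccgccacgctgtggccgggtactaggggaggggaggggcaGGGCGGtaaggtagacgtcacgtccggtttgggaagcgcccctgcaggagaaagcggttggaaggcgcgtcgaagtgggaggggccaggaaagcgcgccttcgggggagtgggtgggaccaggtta
Tra2a has 2 GC boxes and 1 CCAAT box in this window and Tra2b has 1 GC box. A RefSeq promoter was matched for 94 of the 114 genes by symbol, Khdrbs3 not among them. A GC box was in 58.5% of the 94 promoters, against 64.6% of 9444 promoters of genes in the table. A CCAAT box was in 47.9%, against 38.4%, and a TATA box (TATAAA) in 13.8%, against 7.16%. These motifs do not overlap in letters, and a match is a description of the window and not a site of binding.

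The other regulators of this group did not pass. Rbfox1, a regulator of muscle and neuronal exons, had 25.5 CPM in KO 1, 17.7 in KO 2 and 16.8 in KO 3, and 24.4, 25.2 and 24.1 CPM in controls. KO 1 lay above all controls, and KO 2 and KO 3 below them. Its log2 fold change was -0.30 (SE 0.16, edgeR adjusted p = 0.331), and without KO 1 it was -0.51 (edgeR adjusted p = 0.00224). Rbfox2, its more widely expressed relative, had 57.2, 61.6 and 69.0 CPM in KO hearts and 57.9, 64.4 and 54.9 CPM in controls. The muscleblind gene Mbnl1, which drives the adult splicing pattern of heart muscle, had 70.5, 79.7 and 83.5 CPM against 76.0, 76.0 and 80.6 CPM, and its interval ran from -0.19 to 0.21 on the log2 scale. Mbnl2 had 113, 141 and 163 CPM against 123, 137 and 107 CPM. In both muscleblind genes KO 1 was the lowest KO heart and the groups overlapped.

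Celf1 and Celf2, which oppose muscleblind proteins during postnatal development of the heart, had log2 fold changes of 0.17 and 0.10 (edgeR adjusted p = 0.308 and 0.772). Celf1 had 66.5, 70.2 and 72.7 CPM in KO hearts and 59.99, 67.8 and 58.7 CPM in controls. Qk, the quaking gene of the STAR family and the highest of this group per length at 12.6 CPM per kb of exon, had 152, 196 and 210 CPM in KO hearts and 173, 190 and 155 CPM in controls. KO 1 lay under all controls and KO 2 and KO 3 over them. Of 50 other tested genes starting within 5 Mb of Qk, 15 were called, beside 6.03% of all tested genes. The log2 fold change of Qk was 0.11 (SE 0.14, edgeR adjusted p = 0.716). When each library was left out in turn that log2 fold change ran from 0.01 without KO 3 to 0.24 without KO 1. Likewise it ran from 0.0038 to 0.25 for Celf2 and from 0.06 to 0.32 for Mbnl2, lowest without KO 3 and highest without KO 1 in both, and from 0.0085 without KO 3 to 0.15 without control 2 for Rbfox2.

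**Figure D3:**
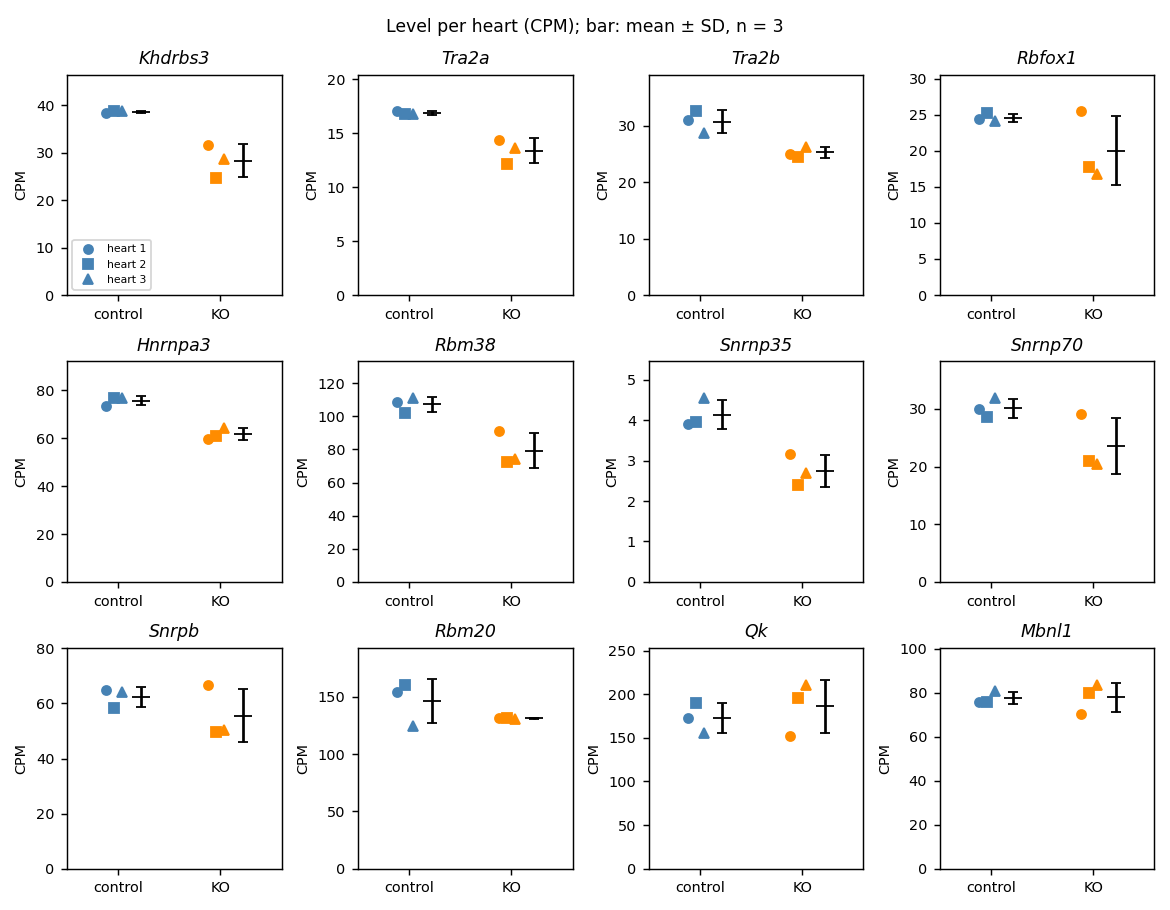
CPM (vertical axis, from 0) in each control heart (blue) and KO heart (orange) for 12 splicing genes; marker shapes give the heart number and bars the mean ± SD (n = 3). The groups are apart in Khdrbs3, Tra2a, Tra2b, Hnrnpa3, Rbm38 and Snrnp35. KO 1 lies in the control range in Snrnp70 and above all controls in Rbfox1 and Snrpb.

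The hnRNP group held 23 genes, the 3 polypyrimidine tract binding (Ptbp) genes among them. None passed the test (edgeR; 4 at an unadjusted p under 0.05, all lower, beside 10.3% of tested genes), and in 11 the KO hearts lay below all controls (13.5% of tested genes). The median log2 fold change was -0.12 and 19 of 23 were below 0. All 23 intervals lay inside 1.5-fold. The summed level was 1434, 1425 and 1483 CPM in KO hearts 1 to 3 and 1571, 1584 and 1539 CPM in controls 1 to 3. These groups did not overlap, and the KO mean was 92.5% of the control mean. Summed levels were also apart for the RBM genes (91.4%) and the U2 and 3' splice site factors (95.1%). They overlapped for the snRNP proteins (95.6%), the PRP factors (102.8%) and the CELF, MBNL, RBFOX, KHDRBS, TRA2 and QK genes (102.6%). Hnrnpa2b1, a packaging protein of nascent RNA, was the highest of all 114 genes per length, at 50.2 CPM per kb. It had 331, 314 and 322 CPM in KO hearts and 344, 339 and 333 CPM in controls, where the log2 fold change was -0.07 with an SE of 0.07 (edgeR adjusted p = 0.649). The gap between the groups in it was small beside its level.

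Hnrnpa3 (ENSMUSG00000059005, chromosome 2, 75659261 to 75669407) was second among the 114 by p. It had 59.6, 60.9 and 64.5 CPM in KO hearts and 73.5, 76.7 and 76.8 CPM in controls, without overlap. The log2 fold change was -0.29 with an SE of 0.07 (edgeR adjusted p = 0.0538). Its counts are uncertain because Gm5641, a single-exon gene on chromosome 3, repeats its coding sequence without a mismatch over 1069 aligned bases, and was given 68.8% as many counts. The first 120 aligned bases of the pair, from base 69 of the Hnrnpa3 coding sequence in GENCODE M21, are shown because reads from them could come from either gene; no letter is in capitals since none differs.
Hnrnpa3: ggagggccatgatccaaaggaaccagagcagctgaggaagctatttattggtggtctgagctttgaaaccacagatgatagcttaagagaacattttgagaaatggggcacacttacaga
Gm5641: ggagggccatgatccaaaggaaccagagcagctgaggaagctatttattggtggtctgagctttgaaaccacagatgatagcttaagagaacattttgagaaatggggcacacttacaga
Gm5641 had a log2 fold change of 0.03. With the counts of both summed, which was chosen after the data were seen, the log2 fold change of Hnrnpa3 was -0.16 (edgeR adjusted p = 0.290). Of 51 tested genes starting within 5 Mb of Hnrnpa3, 10 were called, beside 6.03% of all tested genes.

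Hnrnpl, which binds CA-rich elements, had 69.8, 61.1 and 61.6 CPM in KO hearts and 72.8, 76.8 and 82.2 CPM in controls (log2 fold change -0.27, edgeR adjusted p = 0.129). Hnrnpd, known as AUF1 and for its part in mRNA decay, had 25.9, 26.7 and 25.9 CPM against 30.0, 30.9 and 29.0 CPM (log2 fold change -0.19, edgeR adjusted p = 0.158). In both genes every KO heart was below every control. Hnrnpu, a nuclear scaffold protein needed for splicing in the heart of mice, had 48.1, 41.3 and 42.8 CPM against 52.8, 47.5 and 46.4 CPM, with KO 1 inside the control range (log2 fold change -0.15, edgeR adjusted p = 0.396). Its exons overlap those of Cox20 on the other strand over 804 bases, and whether the authors counted by strand is not stated in the labels or headers. Of 64 tested genes starting within 5 Mb of Hnrnpu, 13 were called, beside 6.03% of all tested genes.

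Hnrnpa1, a repressor of many exons, had 72.0, 78.3 and 95.3 CPM in KO hearts against 92.4, 93.2 and 88.3 CPM, with KO 3 above all controls (log2 fold change -0.16, edgeR adjusted p = 0.474). The pseudogene Gm10052 matches it without a mismatch over 963 bases and was given 2.94% as many counts. Ptbp1, which holds back neuronal and muscle exons, had 16.8, 22.5 and 19.3 CPM against 21.4, 20.6 and 22.8 CPM, and Ptbp2, its neuronal paralog, 8.37, 7.18 and 8.48 CPM against 9.05, 9.63 and 8.13 CPM. Neither passed (edgeR adjusted p = 0.536 and 0.465), and in both the groups overlapped.

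The snRNP proteins numbered 19. None passed (edgeR; 2 at an unadjusted p under 0.05, both lower, beside 10.3% of tested genes). The groups did not overlap in 1 gene with lower and 1 with higher KO values (13.5% and 13.7% of tested genes), and both are proteins of the U11/U12 particle of the minor spliceosome, which removes a rare class of introns. Snrnp35 had 3.17, 2.39 and 2.69 CPM in KO hearts and 3.91, 3.96 and 4.54 CPM in controls (log2 fold change -0.59, SE 0.14, edgeR adjusted p = 0.0565). Snrnp25 had 5.24, 3.46 and 3.67 CPM in KO hearts and 3.16, 2.44 and 3.41 CPM in controls (log2 fold change 0.46, SE 0.20, edgeR adjusted p = 0.247). The first was the lowest and the second the highest log2 fold change among all 114 genes. The third such gene, Snrnp48, had 6.503, 5.83 and 5.02 CPM against 5.05, 5.47 and 4.77 CPM, and overlapped. Snrnp48, like Khdrbs1 above, was chosen after its values were seen, as a relative of a named gene.

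Snrnp70, the U1 protein that contacts SR proteins, had 29.1, 21.02 and 20.4 CPM in KO hearts against 29.9, 28.5 and 31.9 CPM in controls. KO 1 lay in the control range, and KO 2 and KO 3 below it. The log2 fold change was -0.36 (SE 0.14, edgeR adjusted p = 0.205), and without KO 1 it was -0.54 (edgeR adjusted p = 0.00224). Snrpb, the Sm protein with the highest level of the group per length (29.8 CPM per kb), had 66.7, 49.7 and 50.3 CPM against 64.7, 58.2 and 64.2 CPM, with KO 1 above all controls. Its log2 fold change was -0.17 (edgeR adjusted p = 0.508), and without KO 1 it was -0.32 (edgeR adjusted p = 0.0174). Of the 8 Sm genes (Snrpb, Snrpn, Snrpd1, Snrpd2, Snrpd3, Snrpe, Snrpf and Snrpg) none passed (none at an unadjusted p under 0.05 either), and none had groups apart; their log2 fold changes ran from -0.24 to 0.05. Snrpg shares its whole coding sequence of 228 bases with Gm8186, which was given 81.5% as many counts, so its own value is uncertain.

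The U2 and 3' splice site factors were 13 genes: 9 subunits of SF3A and SF3B, U2af1, U2af1l4, U2af2 and U2surp. None passed, and none had an unadjusted p under 0.05 in edgeR. All 13 intervals lay inside 1.5-fold, the median log2 fold change was -0.09, and 11 of 13 were below 0. U2af2, the large subunit that binds the polypyrimidine tract, had 38.3, 36.0 and 36.0 CPM in KO hearts against 40.8, 40.0 and 41.2 CPM, below all controls in every KO heart (log2 fold change -0.15, edgeR adjusted p = 0.271). U2af1, the small subunit that reads the AG at the end of the intron, had 18.5, 15.0 and 15.9 CPM against 18.4, 18.5 and 20.6 CPM, with KO 1 in the control range (log2 fold change -0.22, edgeR adjusted p = 0.281). Sf3b1, the SF3B core that holds the branch point, had 83.7, 102 and 96.7 CPM against 98.9, 106 and 91.7 CPM (log2 fold change -0.07, edgeR adjusted p = 0.751). Sf3b2 was the highest of the group per length, at 15.2 CPM per kb, with 108, 97.3 and 98.4 CPM against 107, 109 and 104 CPM. Sf3a2 had 15.0, 12.6 and 12.7 CPM against 15.0, 15.3 and 14.9 CPM, and overlaps Plekhj1 on the other strand over 429 exonic bases. In Sf3a2 and U2af1 the low KO hearts were KO 2 and KO 3.

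U2af1 also lies 4.81 Mb from Nkx2-5 on chromosome 17. Of 306 other genes tested within 10 Mb of Nkx2-5, 28 were called (9.15%, against 6.03% of all). The others of the 114 in this window were Snrpc, 1.00 Mb away, with a log2 fold change of -0.15 (edgeR adjusted p = 0.650), and Hnrnpm, 6.81 Mb away, with -0.07 (0.641). Qk and Hnrnpll lie on the same chromosome outside the window, 16.63 and 53.19 Mb from Nkx2-5. Of other tested genes starting within 5 Mb of them, 15 of 50 and 5 of 38 were called.

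Of the 12 PRP factors none passed (edgeR; 3 at an unadjusted p under 0.05, all lower, beside 10.3% of tested genes). Prpf6, a scaffold of the tri-snRNP, had 26.4, 27.0 and 24.5 CPM in KO hearts and 32.1, 30.1 and 29.9 CPM in controls (log2 fold change -0.24, SE 0.08, edgeR adjusted p = 0.119). Prpf38b had 15.4, 12.8 and 13.6 CPM against 18.2, 17.1 and 15.8 CPM (log2 fold change -0.29, edgeR adjusted p = 0.151). Prpf39, a U1-associated factor, had 7.29, 6.63 and 6.25 CPM against 7.89, 7.96 and 8.27 CPM (log2 fold change -0.26, edgeR adjusted p = 0.174). In all 3 genes every KO heart lay below every control. Prpf39 shares 599 exonic bases with Fkbp3 on the other strand, whose counts were 2412% of its own. Prpf19, the ubiquitin ligase core of the complex named after it and the highest of this group per length (30.8 CPM per kb), had 249, 229 and 226 CPM against 213, 214 and 212 CPM. Every KO heart lay above every control, and the gene did not pass (log2 fold change 0.14, SE 0.08, edgeR adjusted p = 0.363). With total counts as the only scaling that log2 fold change was -0.0003.

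The 36 RBM genes form the largest group and the most mixed in function. None passed (edgeR; 6 at an unadjusted p under 0.05, all lower, beside 10.3% of tested genes). The median log2 fold change was -0.06, and in 9 the KO hearts lay below all controls (13.5% of tested genes). Rbm38, known as RNPC1 and a p53 target that binds transcripts of muscle and cell cycle genes, was the highest of the group per length at 32.5 CPM per kb. It had 91.2, 72.5 and 73.9 CPM in KO hearts and 109, 102 and 111 CPM in controls (log2 fold change -0.44, SE 0.11, edgeR adjusted p = 0.0569), with no overlap. Rbm22, a factor of the catalytic core, had 11.8, 10.95 and 11.2 CPM against 13.4, 13.6 and 13.9 CPM (log2 fold change -0.26, edgeR adjusted p = 0.0984). Rbmx, the X-linked hnRNP G, had 17.4, 14.3 and 14.1 CPM against 18.3, 20.1 and 18.6 CPM (log2 fold change -0.31, edgeR adjusted p = 0.138). Its retrogene Rbmxl1, named here as the paralog, is 90.3% identical in coding sequence and had 8.85, 9.22 and 9.53 CPM against 10.2, 10.5 and 9.50 CPM.

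Rbm20 and Rbm24 are the muscle regulators of the group. Rbm20, the repressor of titin exons that is mutated in a human dilated cardiomyopathy, had 131, 132 and 131 CPM in the KO hearts, which were nearly level, and 154, 160 and 125 CPM in controls. Control 3 lay below all KO hearts, and the gene did not pass (log2 fold change -0.16, SE 0.11, edgeR adjusted p = 0.455). Rbm24, needed for sarcomere assembly in mouse and fish, had 92.5, 86.7 and 102 CPM against 95.4, 95.1 and 84.5 CPM, with an interval from -0.18 to 0.25 on the log2 scale (edgeR adjusted p = 0.889).

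Rbm12b1 and Rbm12b2 are neighbouring copies on chromosome 4 that are 97.9% identical over 2508 aligned coding columns. The stretch of 120 bases in which they differ most is shown, since elsewhere few letters tell their reads apart; capitals mark the 24 differing letters, and the stretch starts at base 2202 of the first coding sequence and 2196 of the second.
Rbm12b1: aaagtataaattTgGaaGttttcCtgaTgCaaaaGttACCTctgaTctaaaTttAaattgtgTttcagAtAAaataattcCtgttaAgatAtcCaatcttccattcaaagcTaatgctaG
Rbm12b2: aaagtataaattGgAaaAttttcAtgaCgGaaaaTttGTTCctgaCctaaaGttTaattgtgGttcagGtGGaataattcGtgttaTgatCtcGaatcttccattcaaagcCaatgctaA
Rbm12b1 had 5.23, 3.55 and 3.80 CPM in KO hearts against 5.21, 4.58 and 3.06 CPM in controls, and Rbm12b2 3.48, 3.82 and 3.47 CPM against 3.57, 3.68 and 3.73 CPM. Neither passed (edgeR adjusted p = 0.961 and 0.921), and the split of counts between the pair is uncertain. Both were named for their sequence, after their values were seen, as was Rbmxl1.

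The 3 KO hearts were not alike in these genes. KO 1 lay above the mean of KO 2 and KO 3 in 71 of the 114, with a median difference of 0.089 on the log2 scale. Among all 12686 genes tested it did so in 6143, with a median of -0.013. KO 1 lay above the mean of KO 2 and KO 3 in 18 of the 19 snRNP genes, by a median of 0.39 on the log2 scale, and in 3 of the 11 CELF, MBNL, RBFOX, KHDRBS, TRA2 and QK genes, with a median of -0.10. The summed snRNP level was 454 CPM in KO 1, 368 in KO 2 and 385 in KO 3, and 398 to 439 CPM in controls. The gap furthest below 0 was that of Ptbp3, chosen after its values were seen, with 15.8 CPM in KO 1 against 27.8 and 26.1 CPM, and the gap furthest above 0 was that of Rbfox1. Across the 114 genes the difference of KO 1 from the other 2 KO hearts ran against transcript length (Spearman's rho -0.56, n = 114), as it did across 12623 tested genes with a length (-0.49). These points share libraries and are not independent. In the 38 genes with the shortest transcripts (0.669 to 2.85 kb) KO 1 was above in 34, and in the 38 with the longest (4.31 to 21.5 kb) in 14. Controls differed by length too: the same rho over the 114 was 0.62 for control 2 against the other 2 controls and -0.61 for control 3, and -0.07 for control 1.

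**Figure D4:**
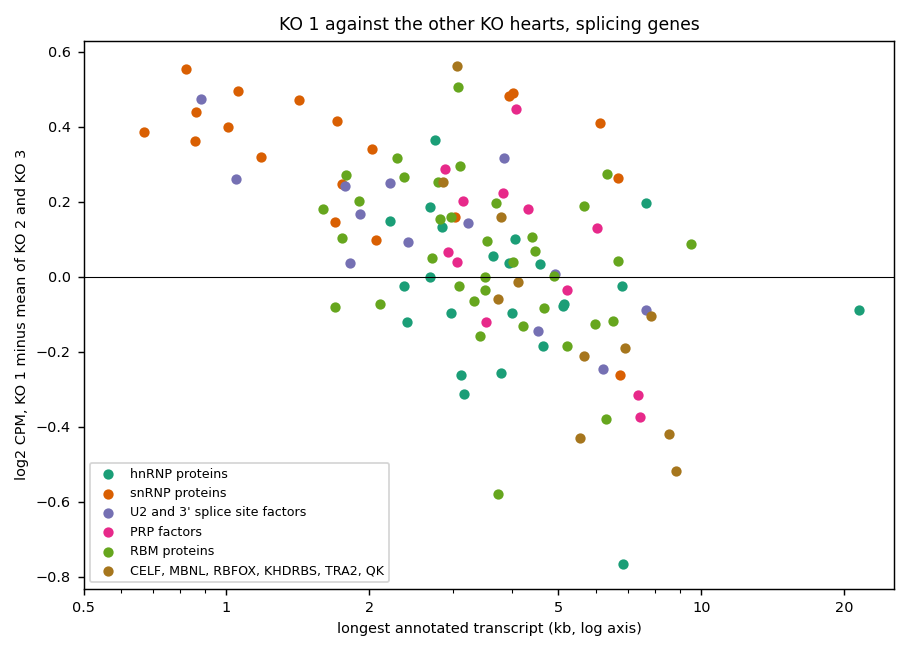
Difference in log2 CPM between KO 1 and the mean of KO 2 and KO 3 (vertical axis) against the longest annotated transcript (kb, log axis) for the 114 genes, coloured by group. The snRNP genes, most of them short, lie above 0 in 18 of 19 cases, and many of the longest transcripts lie below.

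KO 1 also stood apart in markers of some cell types and not of others. Summed fibroblast markers (6 of 6 measured) were 283 CPM in KO 1, 614 in KO 2 and 530 in KO 3, against 494 to 529 CPM in controls. Endothelial markers (6 of 6) were 360, 579 and 497 CPM against 464 to 487 CPM, and atrial markers (4 of 6) 51.5, 249 and 197 CPM against 180 to 242 CPM. Cardiomyocyte markers were 71100, 63930 and 65070 CPM against 67710 to 69060 CPM, highest in KO 1. In erythroid markers (5 of 5), 339, 228 and 753 CPM, KO 1 lay between the other KO hearts. So it did in skeletal muscle markers (3 of 6), 2520, 2527 and 1772 CPM. No gene of the fibroblast and endothelial lists was called (edgeR), and 1 of the atrial list was called lower. The part of these markers in the values above was not tested. In whole tissue, fewer cells of a type and less RNA per cell cannot be told apart.

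Without KO 1, 25 of the 114 genes were called lower and 1, Ptbp3, higher in edgeR, 22.8% of them, and 22.8% of all genes tested were called in that fit (10.5% lower, 12.3% higher). Prpf40b (log2 fold change -0.47, edgeR adjusted p = 0.00468), Snrpf (-0.40, 0.0188) and U2af1l4 (-0.35, 0.0213), listed above without their levels, were among the 25. Of the genes whose level in each heart is given above, 16 that did not pass with all libraries were called lower without KO 1. They were Rbm38 (log2 fold change -0.55, edgeR adjusted p = 0.00137), Rbfox1, Snrnp70, Snrpb, Snrnp35 (-0.70, 0.00709), Rbmx (-0.42, 0.00736), Tra2a (-0.39, 0.0117), Hnrnpl (-0.33, 0.0160), Prpf38b (-0.37, 0.0192), Hnrnpa3 (-0.27, 0.0248), Rbm22 (-0.30, 0.0252), U2af1 (-0.31, 0.0317), Prpf39 (-0.32, 0.0334), Sf3a2 (-0.25, 0.0412), Tra2b (-0.28, 0.0428) and Prpf6 (-0.25, 0.0476). The log2 fold change of Snrnp25 was 0.25 without KO 1, and that of Sf3b2 -0.13. It was -0.07 without KO 1 and -0.28 without KO 3 for Hnrnpa1, and -0.05 without KO 1 and -0.26 without KO 2 for Ptbp1. For Ptbp2 it was -0.09 without KO 2, and for Hnrnpu -0.09 without control 1. For Rbm20 it was -0.08 without control 2 and -0.26 without control 3.

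The groups were apart without KO 1, with KO lower, for 54 of the 114 (27.7% of tested genes) and, with KO higher, for 13 (28.5%). Without KO 2, KO 3 or control 1, 2 or 3 none of the 114 was called in edgeR, where 3.87%, 3.36%, 2.27%, 2.36% and 2.5% of tested genes were. With the heart number as a block none was called either, against 3.98%. With total counts as the only scaling 15 were called, all lower (13.2%), against 9.17% of tested genes (7.01% lower). The groups were apart with KO lower for 65 (30.1% of tested genes) and with KO higher for none (5.93%). With RLE factors, without a filter, with a CPM of at least 1 in 3 libraries and with limma-trend Khdrbs3 alone was called, against 6.02%, 5.96%, 6.1% and 6.03% of tested genes. With DESeq2 6 were called (5.26%), against 11.6%. The 6 were Khdrbs3, Hnrnpa3, Snrnp35, Rbm38, Tra2a and Tra2b, all lower in the KO hearts.

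Of 64 other components of the spliceosome, 3 fell and none rose (edgeR), where 2.74% of tested genes fell and 3.29% rose. KO values lay below all controls in 18 (13.5% of tested genes) and above them in 1 (13.7%), and the median log2 fold change was -0.07. Wbp11, a splicing factor that binds protein phosphatase 1, had 26.3, 24.8 and 24.5 CPM in KO hearts and 36.2, 37.1 and 35.2 CPM in controls (log2 fold change -0.52, SE 0.07, edgeR adjusted p = 0.00597). Srrm1, a coactivator with SR-rich domains, had 35.5, 31.1 and 31.7 CPM against 42.9, 42.5 and 40.2 CPM (log2 fold change -0.35, edgeR adjusted p = 0.0470). Acin1, a component of the complex left at exon junctions, had 32.7, 26.8 and 26.7 CPM against 39.4, 38.1 and 37.7 CPM (log2 fold change -0.42, edgeR adjusted p = 0.0497).

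Of 27 other RNA-binding regulators tested, 3 fell and none rose (edgeR, beside the same shares of tested genes), with a median log2 fold change of -0.07. Khsrp, which binds AU-rich and splicing enhancer elements, had 15.2, 14.7 and 13.2 CPM in KO hearts and 21.4, 22.5 and 20.7 CPM in controls (log2 fold change -0.59, SE 0.09, edgeR adjusted p = 0.00847). Msi2, a musashi protein of progenitor cells, had 57.0, 58.8 and 63.5 CPM against 82.4, 91.0 and 75.5 CPM (log2 fold change -0.47, edgeR adjusted p = 0.0278). In Wbp11, Srrm1, Acin1, Khsrp and Msi2 all KO hearts lay below all controls. Over both lists 6 of 91 tested genes were called, all lower, beside 6.03% of all tested genes called either way and 2.74% called lower. Without a library between 0 and 19 of the 91 were called lower: 19 without KO 1, 2 without KO 2, 2 without KO 3, and 0, 1 and 3 without controls 1 to 3. Of all tested genes 10.5% were called lower without KO 1. Called either way were 3.87% without KO 2, 3.36% without KO 3, and 2.27%, 2.36% and 2.5% without controls 1 to 3.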

How the data were processed

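Whole-heart RNA was sequenced from 6 mice, with poly(A) selection per the labels' protocols. The authors' deposited table lists 12824 genes, with 1 raw value per gene and library. RSEM 1.17 stands in the submitters' processing notes, so the deposited raw values, which are whole numbers, were read as estimated counts that the authors rounded. The notes also list cutadapt, Picard, edgeR and GRCm38 without saying what each did. No source used here names the aligner, the annotation or the strand setting. Further columns deposited by the authors hold a normalized signal, a log2 fold change, a signed fold change (a score), and a p-value with an adjusted p-value. Of these only the p-values are cited.

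The whole table was fitted with edgeR 4.0.16 in R 4.3.3, using TMM factors, the default low-count filter, which removed 138 genes, and the robust quasi-likelihood F test. P-values were adjusted by Benjamini-Hochberg over the 12686 genes tested, at a threshold of 0.05. SEs were derived from the fitted change and the F statistic, and log2 CPM used a prior count of 2. The labels name separate hearts. The test sets the difference between the groups against the spread between hearts within a group, an estimate that partly draws on other genes. The script was tested on simulated data with 50 changed genes at each fold. It called 2% of 1.25-fold, 38% of 1.5-fold, 76% of 2-fold and 98% of 4-fold changes, and 6.96% of its calls were unchanged genes. A gene that did not pass may therefore still have changed, in some cases by 1.5-fold or 2-fold. Alternatives are given at the end.

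Copies were sought with blastn 2.17.0 in GENCODE M21 transcripts, at 90% identity or more, in alignments of 60 bases or more that sum to 200 bases and to 50% of the shorter sequence; 6 of the 114 genes had one. Exons of 23 overlap those of another gene in the table. CPM per kb used merged exon length. Members and gene lists were chosen with earlier results of these data known. Genes were named if called, if among 20 regulators known in heart, muscle or splicing, if among the 3 smallest p of their group, or if highest per length there; other genes named are said to be so. The values of 1 called gene of these lists are not reported here.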

Additional observations from a re-analysis of the deposited data

How the results depend on the processing

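Other settings were RLE factors, total counts, DESeq2 1.42.0, limma-trend (limma 3.58.1), no filter, CPM of at least 1 in 3 libraries, the heart number as a block and leaving out each library; counts summed over copies, and the settings for genes with groups apart, were chosen after seeing the data. Of the 114 genes, 1 was called lower in the main analysis, 15 with total counts, 6 with DESeq2 and 0 to 25 when a library was left out; 0 were called higher, and 0 to 1 when a library was left out. Genes with KO values below all controls numbered 31 (13.5% of tested genes), 65 with total counts (30.1%) and 31 to 54 without a library. The 54 came without KO 1 (27.7%). Genes with KO values above all controls numbered 2 (13.7%), 0 with total counts (5.93%) and 3 to 13 without a library. The 13 came without KO 1 (28.5%). Shares of tested genes are not given here for the fits without another library. Of the 91 other genes, 6 were called lower (2.74% of tested genes), 14 with total counts (7.01%) and 0 to 19 without a library. The 19 came without KO 1 (10.5%). None of the 91 was called higher, against 1 with DESeq2 and 0 to 1 without a library. With the replicate block 0 of the 114 and 3 of the 91 were called lower. To look for matched hearts, the log2 CPM of each tested gene was taken as its deviation from the mean of its own group. These deviations, and not the levels themselves, correlated between same-numbered KO and control hearts at -0.0639, 0.151 and -0.256. By them 1 of 6 libraries matched its own number best. With 3 hearts a group these values cannot tell whether same-numbered hearts were matched, and the sample titles give only a number. Log2 fold changes turned with total counts for Celf2 (-0.0373), Mbnl1 (-0.13), Prpf19 (-0.0003), Qk (-0.0288), Rbfox2 (-0.0545) and Rbm24 (-0.11). Without a library they ranged from -0.0456 to 0.0742 for Mbnl1, from -0.0328 to 0.0854 for Rbm24 and from -0.1326 to 0.0069 for Sf3b1. The cause was not tested for any of these. None of them passed the test in these fits. With 3 hearts a group, the median SE of the 114 log2 fold changes was 0.0991.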
